A study of Mus musculus with 35 samples.

Results

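The cells described here were mouse cells infected with the factor combination labelled ODR and grown in the reprogramming medium iCD1 without added BMP4, sampled at day 1 and again at day 6. They were found by their titles: 2 libraries at day 1 and 3 at day 6, which is 5 of the 35 libraries of the series. Messenger RNA was selected by its poly-A tail and sequenced. All cells of these groups had been through 2 rounds of infection, and the labels give neither the age nor the strain of the source animals and do not say from which event the days are counted. The letters of ODR, and of the OA and OB combinations used for comparison (2 libraries each at day 1, and 3 OA and 4 OB libraries at day 6), are not expanded in the labels. The series title names the histone demethylase Kdm2b and a variant Polycomb complex, and its design text names Oct4 together with Kdm2b. The OA and OB cells had the same infection scheme and medium, also without BMP4, and no group of uninfected cells in iCD1 was used here. The labels call all these cultures reprogramming cells and do not say that replicates came from separate cultures. A p-value here thus sets a change against a spread among libraries that may be technical. That spread was pooled over 11 groups. They include ODR, OA and OB at day 14 without BMP4, and ODR and OB at day 6 with BMP4 at 10 ng per ml.

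Mouse fibroblasts in culture carry a contractile programme: actin stress fibres, calponins, transgelin and the actin isoform Acta2, with matrix and signalling genes that respond to TGF-beta and to the mechanosensitive coactivators YAP and MRTF. Reprogramming to a stem cell state begins with the loss of such fibroblast genes, and the endogenous pluripotency network comes on late. CD73, the product of Nt5e, is a cell surface enzyme that makes adenosine from AMP and is used as a mesenchymal stromal marker. Interferon-stimulated genes form a separate programme that is switched on by interferon receptors and covers antiviral effectors and antigen presentation.

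The deposited values are normalized tag counts in whole numbers with a common ceiling of 18690. One library stands under 2 opposite labels. The library labelled ODR day 6 replicate 3, without BMP4, and the library labelled ODR day 6 with BMP4, replicate 2, held identical values at all 21350 genes. Its log2 values correlated at r = 0.967 and 0.957 across genes with ODR day 6 replicates 1 and 2, which correlated with each other at 0.968, and at 0.886 with the other library labelled ODR with BMP4 at day 6. Both of those replicates gave 0.895 and 0.885 against that BMP4 library. Genes are not independent replicates, and the labels do not settle which treatment the doubly labelled library had. In what follows, values at day 6 are given in the order replicate 1, replicate 2 and doubly labelled library. Fold changes, errors and calls come from the fit without the doubly labelled library, and results that differ with it are given beside them.

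The infection was visible at the gene that codes for Oct4. Pou5f1 (chr17:35506018-35510772, mm10) stood at the ceiling of 18690 in all 5 ODR libraries, against 0 in the single mouse embryonic fibroblast (MEF) library and 3988 in the single mouse embryonic stem cell (mESC) library. Kdm2b was at 308 and 460 at day 1 and at 230, 278 and 240 at day 6, against 287 in the MEF library. It did not pass the test (log2 fold change -0.57, adjusted p = 0.133). Its paralog Kdm2a was at 1254 and 814 and then at 791, 783 and 841 (-0.36 ± 0.93, adjusted p = 0.813). The error is pooled over groups, among them OA at day 1, where Kdm2a was at 18690 and 9294. In the other combinations Kdm2b averaged 18690 in the OB libraries at day 6 and Kdm2a 18690 in the OA libraries, both at the ceiling.

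From day 1 to day 6 most contractile genes and most TGF-beta and YAP response genes fell in ODR cells, while Nt5e and most interferon-stimulated genes rose. A gene was tested where 2 or more of the 5 libraries reached a value of 10. Of the 12473 such genes, 1711 were called higher (13.7% of the genes tested) and 1733 lower (13.9%) at day 6, at an adjusted p below 0.05 in limma. Another 8877 genes of the table were too low to be tested. With the doubly labelled library included, 2006 (16.1%) were called higher and 2119 (17%) lower. Of the calls, 1664 higher and 1644 lower held in both fits, and no gene called in both turned its direction. Among the 1711 higher calls 1686, and among the 1733 lower calls 1696, had no overlap between day 1 and all 3 day 6 libraries. Separate groups, mentioned below for single genes, were thus usual for a called gene. Changes of at least 4-fold made up 427 of the higher and 293 of the lower calls, and changes of at least 16-fold 77 and 45. The median log2 fold change over all genes tested was -0.04.

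The 2 marker genes of this change moved in opposite directions and without overlap between the days. Tagln, which codes for the actin-binding protein transgelin (chr9:45929619-45936058, minus strand, mm10), was at 3008 and 3690 at day 1 and at 99, 111 and 114 at day 6. Its log2 fold change was -4.98 ± 0.60 (SE, adjusted p = 1.07e-05). Nt5e, which codes for CD73 (chr9:88327197-88372092, plus strand), was at 18 and 16 at day 1 and at 1936, 1779 and 1364 at day 6, a log2 fold change of 6.69 ± 0.39 (adjusted p = 3.28e-09). The MEF library held 5072 for Tagln and 76 for Nt5e, so that Nt5e at day 6 lay above the fibroblast library and Tagln below it. In these bulk libraries, fewer cells of a type and less RNA per cell cannot be told apart.

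**Figure D1:**
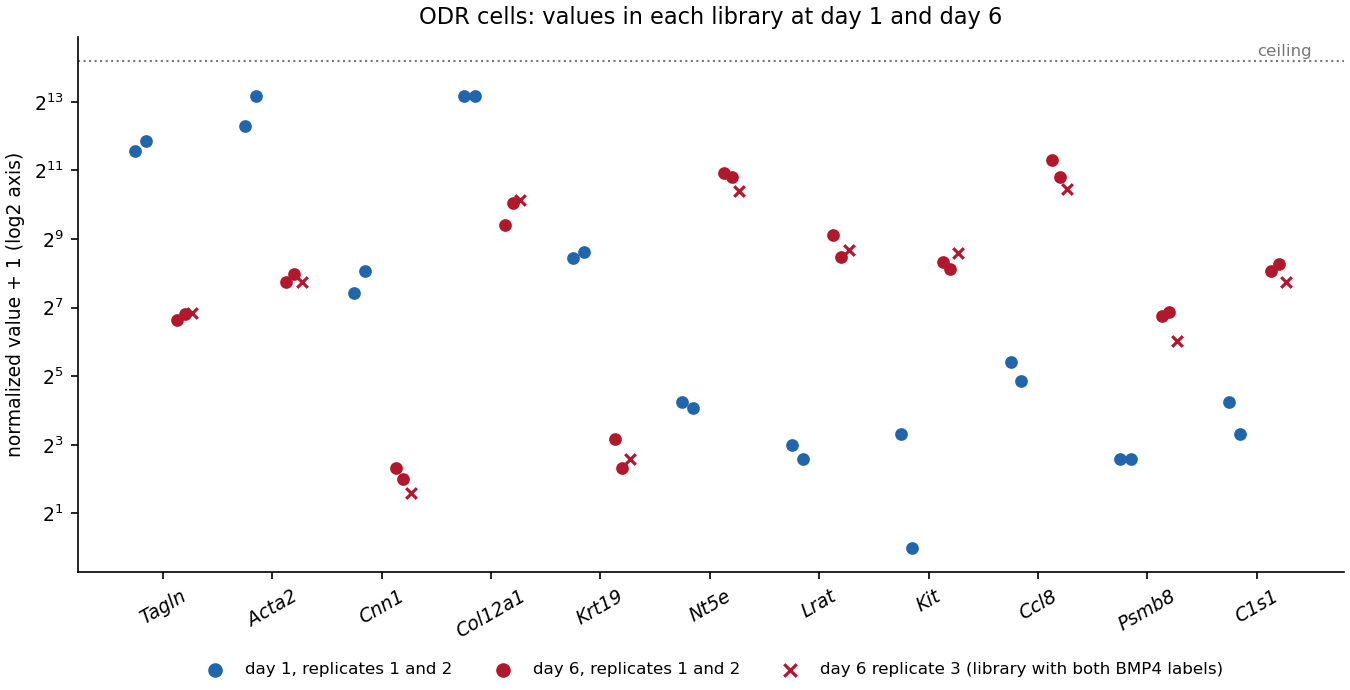
Normalized value plus 1 (log2 axis) of 11 genes in each ODR library, with day 1 in blue, day 6 in red and the doubly labelled library as a cross; the dotted line is the ceiling of 18690. For Tagln the day 1 libraries sit at 3008 and 3690 and the day 6 libraries between 99 and 114, and for Nt5e at 16 and 18 against 1364 to 1936.

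The genes described next had the largest called rises among genes off the ceiling with a day 6 mean of at least 100 and no overlap between the days. Kcnj5, a subunit of an inwardly rectifying potassium channel, went from 2 and 0 to 165, 327 and 172 (log2 fold change 7.07 ± 0.61, adjusted p = 3.13e-07). The calcium channel gene Cacna1e was listed at 0 in both day 1 libraries and at 81, 146 and 104 at day 6. Kit, the receptor for stem cell factor, was at 9 and 0 and then at 322, 281 and 387 (6.58 ± 0.66, adjusted p = 1.64e-06). Every day 6 value above both day 1 values was a condition of the choice and is no further result for these genes. The POU factor gene Pou3f1 rose from 4 and 0 to 112, 252 and 142, and Lrat, which codes for the enzyme that esterifies retinol, from 7 and 5 to 550, 352 and 412. The chemokine gene Ccl8 rose from 42 and 28 to 2540, 1782 and 1410. Slc8a2, a sodium-calcium exchanger, Sphkap, which codes for an A-kinase anchoring protein, and the unconventional myosin gene Myo18b complete the 10 largest rises of this kind, with Nt5e among them, and had log2 fold changes of 5.86, 5.86 and 5.69. Serpina3n, with a day 6 value at the ceiling, had a larger fitted fold change and is described with the acute phase genes. Low starting values make folds depend on the 1 added before the log, so the values themselves are the safer description.

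The largest falls, chosen in the same way from genes with a day 1 mean of at least 100, included cytoskeletal, cartilage and placental genes. Acta1, the skeletal muscle actin, was at 106 and 222 at day 1 and at 4, 0 and 6 at day 6 (log2 fold change -6.11 ± 0.89, adjusted p = 7.64e-05). Krt19, a keratin of simple epithelia, went from 349 and 393 to 8, 4 and 5 (-5.79 ± 0.90, adjusted p = 0.000132). Col2a1, the main cartilage collagen, went from 159 and 202 to 1, 4 and 1. Day 6 values below both day 1 values were again a condition of the choice. Prl8a6, a member of the placental prolactin family, was at 112 and 122 at day 1 and was listed at 0 in all 3 day 6 libraries. Its relative Prl3d3 was at 186 and 232 and then at 9, 0 and 38. Zfp804a, a zinc finger gene, was at 132 and 134 and was listed at 0 in both day 6 libraries of the fit, but at 35 in the doubly labelled one. Dock8, a guanine nucleotide exchange factor, fell by 5.35 on the log2 scale. Cnn1 and Tagln, described with the contractile genes, were also among the largest falls.

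Most genes of the contractile list fell by day 6. Of its 22 genes, all tested, 15 were called lower (68.2%, against 13.9% of all genes tested), 2 higher (9.09%, against 13.7%) and 5 neither, and the median log2 fold change was -0.90 against -0.04 over all genes tested. Acta2, the smooth muscle actin that marks contractile fibroblasts, was at 5077 and 9301 at day 1 and at 212, 252 and 214 at day 6 (log2 fold change -4.89 ± 0.69, adjusted p = 5.33e-05). Cnn1, or calponin, went from 170 and 268 to 4, 3 and 2 (-5.58 ± 0.82, adjusted p = 8.29e-05). Tpm2, a tropomyosin, went from 1114 and 1156 to 186, 218 and 160 (-2.49 ± 0.29, adjusted p = 8.47e-06). For all 3 the groups were far apart. More widely expressed genes of the list had smaller fold changes: the focal adhesion gene Vcl (vinculin) from 3688 and 3488 to 1530, 2174 and 1390 (-0.98 ± 0.21), and Srf, the transcription factor that drives these genes, from 294 and 282 to 182, 201 and 248 (-0.59 ± 0.18, adjusted p = 0.0237). The Srf call ended when any 1 of the 4 libraries was left out. The exceptions were Mylk, the kinase that activates myosin light chain, which rose from 19 and 19 to 178, 212 and 146 (3.29 ± 0.31, adjusted p = 1.03e-06), and Myocd, a coactivator of SRF, which rose from 6 and 4 to 18, 23 and 11. With the doubly labelled library 17 were called lower and 2 higher. Tagln, a member called lower, was among the genes used to describe this change, and its fall is no independent support for the list.

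SRF binds a sequence known as the CArG box. Among 12447 promoter windows of the genes tested (the 250 bases before each start in RefSeq, GRCm38.p6, of the 9678 genes with an entry), 1.14% held a CArG box on either strand. In the contractile list 4 of 18 windows did, or 22.2%, and they belong to Cnn2, Myl9, Srf and Vcl. The windows of Acta2, Cnn1 and Tpm2 held none. The share was similar in the immediate early list described below, with 5 of 23 windows (21.7%) from 2 genes. Among windows of immediate early members called lower it was 0 of 7. Myl9, a myosin light chain, fell from 700 and 1008 to 86, 140 and 100 (log2 fold change -2.92 ± 0.58, adjusted p = 0.0011). Cnn2, a second calponin, was at 1331 and 1331 and then at 852, 1184 and 740 and was not called (adjusted p = 0.158), although it was called lower with the doubly labelled library (adjusted p = 0.0388). These 3 windows are shown to set the box of a strongly falling, a mildly falling and an uncalled gene side by side, 5′ to 3′ on the gene's strand, with the box in capitals. Myl9 is at chr2:156775214-156775463, plus strand, Vcl at chr14:20929148-20929397, plus strand, and Cnn2 at chr10:79988350-79988599, plus strand.
Myl9: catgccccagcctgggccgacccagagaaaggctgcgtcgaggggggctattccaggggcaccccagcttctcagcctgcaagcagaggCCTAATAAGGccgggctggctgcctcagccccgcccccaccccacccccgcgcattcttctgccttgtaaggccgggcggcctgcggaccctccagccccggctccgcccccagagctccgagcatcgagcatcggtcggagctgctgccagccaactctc
Vcl: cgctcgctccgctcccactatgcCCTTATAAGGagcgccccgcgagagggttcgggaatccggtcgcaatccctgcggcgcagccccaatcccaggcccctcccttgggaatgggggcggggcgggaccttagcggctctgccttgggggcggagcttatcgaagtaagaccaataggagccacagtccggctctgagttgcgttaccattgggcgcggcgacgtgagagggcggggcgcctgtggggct
Cnn2: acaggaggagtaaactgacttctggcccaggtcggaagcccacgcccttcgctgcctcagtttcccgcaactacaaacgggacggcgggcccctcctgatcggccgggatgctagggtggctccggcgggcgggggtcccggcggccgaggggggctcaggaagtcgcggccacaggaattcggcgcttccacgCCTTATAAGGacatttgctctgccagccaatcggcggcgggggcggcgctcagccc
The box starts 161 bases before the Myl9 start, 227 before the Vcl start and 56 before the Cnn2 start, and Vcl and Cnn2 carry the same 10 letters. A match of letters is a description and does not show binding.

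Most response genes of TGF-beta and YAP fell as well. Of 24 listed genes, all tested, 15 were called lower (62.5%, against 13.9% of all genes tested) and 2 higher (8.33%, against 13.7%), with a median log2 fold change of -1.30. The inhibitory Smad gene Smad7 went from 137 and 142 to 39, 26 and 50 (-2.10 ± 0.40, adjusted p = 0.000839). Among YAP targets, Amotl2 went from 586 and 686 to 144, 124 and 199 (-2.24 ± 0.22, adjusted p = 1.45e-06), Axl from 1892 and 1892 to 689, 802 and 658 (-1.35 ± 0.17), and Ajuba from 339 and 354 to 75, 68 and 64 (-2.26 ± 0.29). Every one of these genes had separate groups. The 2 genes called higher were Tgfbi, a secreted adhesion protein, from 127 and 67 to 473, 658 and 411 (2.58 ± 0.44, adjusted p = 0.000312), and the receptor gene Tgfbr2, from 820 and 812 to 1132, 1364 and 1430. The Tgfbr2 call (0.61 ± 0.19, adjusted p = 0.027) ended when any of 3 of the 4 libraries was left out. Without day 6 replicate 1 the number called lower in the list was 9.

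The letters GGAATG, which TEAD factors, the DNA-binding partners of YAP, recognise, were found on either strand in 10.9% of the 12447 windows. They were in 5 of 22 windows of the TGF-beta and YAP list (22.7%) and in 9 of 18 windows of the contractile list (50%). The windows of Amotl2 (chr9:102717554-102717803, plus strand) and Ajuba (chr14:54577662-54577911, minus strand) are printed because both genes fell and both carry the letters on the opposite strand, where they read CATTCC (capitals).
Amotl2: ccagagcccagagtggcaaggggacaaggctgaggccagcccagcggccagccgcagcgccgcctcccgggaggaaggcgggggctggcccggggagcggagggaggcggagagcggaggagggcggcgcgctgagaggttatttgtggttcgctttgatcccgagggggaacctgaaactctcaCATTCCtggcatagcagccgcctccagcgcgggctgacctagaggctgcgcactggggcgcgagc
Ajuba: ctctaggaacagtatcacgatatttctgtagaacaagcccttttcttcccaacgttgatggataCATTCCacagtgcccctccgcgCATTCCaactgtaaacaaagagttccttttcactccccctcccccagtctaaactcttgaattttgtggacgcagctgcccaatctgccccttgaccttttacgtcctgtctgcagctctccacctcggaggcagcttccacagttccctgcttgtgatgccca
Amotl2 holds 1 match, starting 65 bases before the start, and Ajuba holds 2, at 186 and 164 bases.

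Matrix genes divided into those that fell and a larger number that did not pass the test. Of 30 tested genes of the fibrillar matrix list, 9 were called lower (30%, against 13.9% of all genes tested) and 1 higher, and the median log2 fold change was -0.37. Col12a1, a collagen associated with fibrils, went from 9294 in both day 1 libraries to 682, 1054 and 1138 (-3.45 ± 0.34, adjusted p = 1.45e-06). Lox, the enzyme that crosslinks collagen, went from 4632 and 3499 to 590, 772 and 628 (-2.57 ± 0.26, adjusted p = 1.71e-06), and the elastic fibre gene Fbln5 from 952 and 1158 to 166, 184 and 220 (-2.58 ± 0.39). Pcolce, which helps to process procollagen, rose from 1018 and 1062 to 2478, 2720 and 2620 (1.32 ± 0.17, adjusted p = 2.71e-05). The main fibrillar collagen Col1a1 was at 5616 in both day 1 libraries and at 2720, 3492 and 3492 at day 6, which did not pass the test (-0.87 ± 0.49, adjusted p = 0.206). Col1a2 was at the ceiling at day 1 and at 3178, 7101 and 6250 at day 6 (fitted log2 fold change -1.98 ± 1.29, adjusted p = 0.277). For both collagens the day 6 values lay below day 1, and the errors are pooled over groups. Fibronectin (Fn1) was at 9308 in all 5 libraries.

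Most fibroblast markers did not pass the test. Of the 8 genes that served to check for fibroblasts, 1 was called lower, the homeobox gene Prrx1, from 1698 and 1220 to 564, 706 and 532 (log2 fold change -1.19 ± 0.25, adjusted p = 0.0017). The median log2 fold change of the 8 was -0.64, against -0.04 over all genes tested. Their summed level was 47789 and 34422 at day 1 and 14374, 22876 and 31160 at day 6. A gene that misses the threshold is not thereby shown to be unchanged. Thy1, a fibroblast surface marker, was at 1693 and 1378 and then at 1350, 1242 and 1243 (-0.24 ± 0.19, adjusted p = 0.369). In the wider mesenchymal list of 28 tested genes, 5 were called lower (17.9%, against 13.9% of all genes tested) and 4 higher. S100a4, a calcium-binding protein of motile fibroblasts, fell from 1124 and 1079 to 136, 124 and 189 (-3.07 ± 0.34, adjusted p = 3.91e-06), and the hyaluronan receptor Cd44 from 2072 and 1900 to 692, 840 and 728 (-1.38 ± 0.22). Postn, or periostin, rose from 5626 and 5091 to the ceiling in both day 6 libraries of the fit (fitted log2 fold change 1.80 ± 0.45, adjusted p = 0.00569). It was at 6251 in the doubly labelled library, with which the fitted value was 1.28. The intermediate filament gene Vim was at the ceiling throughout. The number called higher in this list fell to 1 or 2 when any single library was left out.

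**Figure D2:**
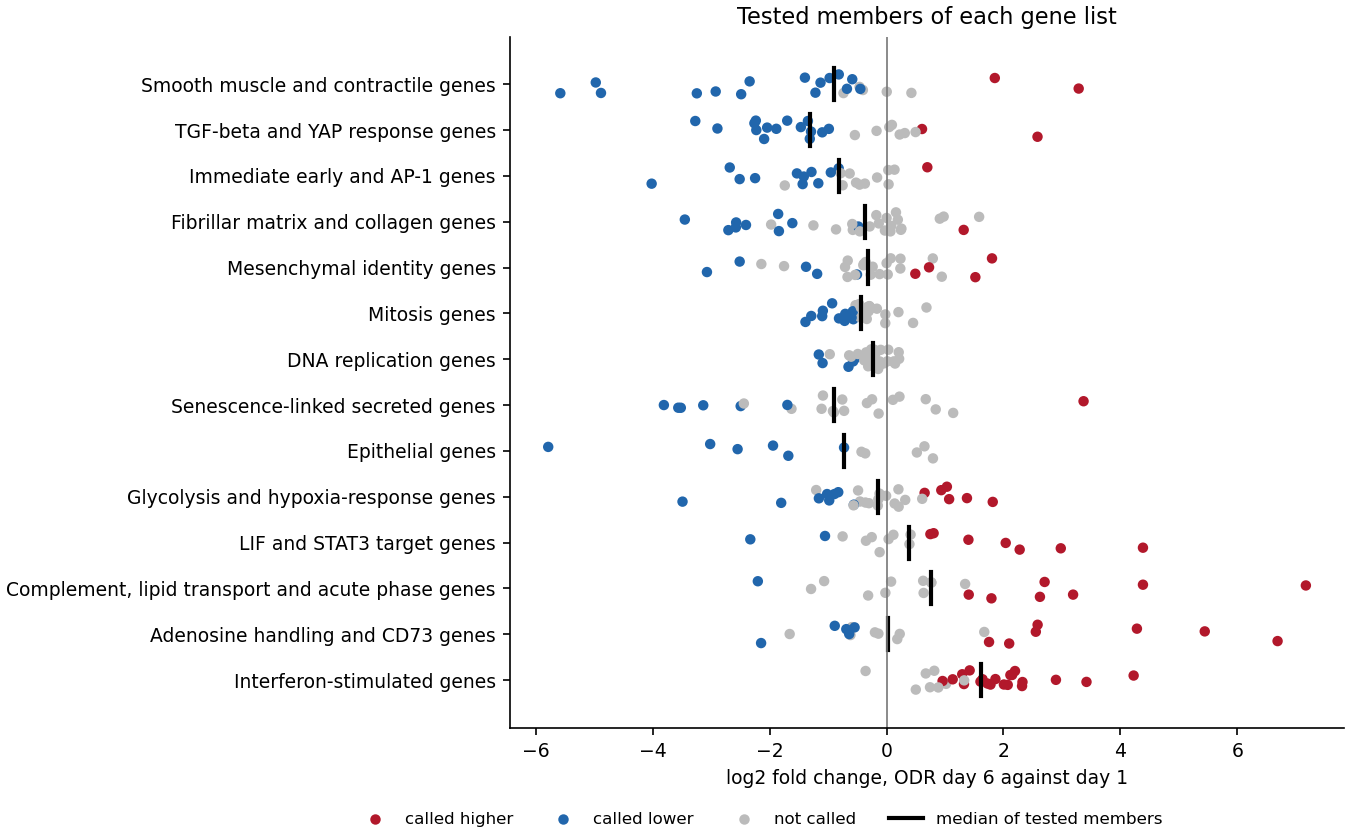
Log2 fold change of ODR day 6 against day 1 for each tested member of 14 gene lists (points, red called higher, blue called lower, grey not called), with the median of each list as a black bar. The interferon list lies to the right with a median of 1.62, and the contractile and TGF-beta lists to the left with medians of -0.90 and -1.30.

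Immediate early genes are switched on within minutes of growth factor or stress signals. Of 23 tested genes, 11 were called lower (47.8%, against 13.9% of all genes tested), 1 higher and 11 neither (median log2 fold change -0.82). Nr4a1, an orphan nuclear receptor, went from 127 and 140 to 22, 18 and 37 (-2.68 ± 0.31, adjusted p = 6.22e-06). Fosl1, an AP-1 subunit that also stands in the mesenchymal list, went from 742 and 588 to 122, 108 and 127 (-2.51 ± 0.62, adjusted p = 0.00545), and Ier2 from 237 and 246 to 84, 96 and 114 (-1.42 ± 0.25, adjusted p = 0.000403). These genes did not overlap between the days. Jun was at 929 and 785 and at 752, 774 and 773 (adjusted p = 0.516), and Jund rose from 438 and 336 to 575, 674 and 572 (0.70 ± 0.15, adjusted p = 0.00258), a call that ended without day 1 replicate 2 (0.51, adjusted p = 0.0635). The number called lower dropped to 6 without either day 1 library and to 4 without day 6 replicate 1.

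Most interferon-stimulated genes rose. Of 28 tested members of the list, 20 were called higher and 0 lower, against 13.7% of all genes tested called higher, and the median log2 fold change was 1.62. The same numbers, 20 and 0, held with the doubly labelled library, with a median of 1.49. Psmb8, a catalytic subunit of the immunoproteasome, was at 5 in both day 1 libraries and at 107, 116 and 64 at day 6 (4.23 ± 0.30, adjusted p = 3.34e-08). Tap1, which carries peptides into the endoplasmic reticulum, went from 44 and 50 to 156, 171 and 180 (1.78 ± 0.25, adjusted p = 4.28e-05). The class I light chain gene B2m went from 2620 and 1970 to 7091, 7091 and 6244 (1.64 ± 0.27, adjusted p = 0.000181). All 3 had separate groups.

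The signalling genes of the pathway were among those called higher. Irf9 went from 214 and 154 to 388, 410 and 380 (log2 fold change 1.13 ± 0.20, adjusted p = 0.000333), and Stat2 from 350 and 196 to 712, 607 and 608 (1.32 ± 0.35). The Stat2 call ended without day 1 replicate 2 (adjusted p = 0.142) or day 6 replicate 1 (0.063). Irf7, the factor that amplifies the response, went from 66 and 42 to 199, 282 and 186 (2.15 ± 0.47, adjusted p = 0.00238). Among effectors, Bst2, which tethers budding virus, went from 175 and 122 to 638, 850 and 520 (2.33 ± 0.39, adjusted p = 0.000277), and Oasl2 from 18 and 9 to 95, 226 and 55 (3.42 ± 0.57, adjusted p = 0.00023). In these 5 genes day 1 replicate 1 lay above day 1 replicate 2, and no value of day 1 reached one of day 6.

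Among the genes of the list that were not called are relatives of called ones. Ifit1, an RNA-binding antiviral protein, rose from 14 and 7 to 58, 112 and 47 (log2 fold change 2.90 ± 0.65, adjusted p = 0.0028), and the ubiquitin-like Isg15 from 45 and 25 to 120, 207 and 115 (2.2 ± 0.59, adjusted p = 0.00939). The call of Isg15 ended when either of 2 libraries was left out. The Ifit1 relative Ifit3 was at 8 and 9 and then at 13, 17 and 12 (0.74 ± 0.44, adjusted p = 0.223), and Ifit2 at 52 and 39 and then at 27, 45 and 34 (adjusted p = 0.715). Ifit genes are close relatives, and the sources used here do not say how reads shared between them were assigned.

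A pair of GAAA blocks set 2 bases apart, the core of the interferon-stimulated response element to which interferon-activated factors bind, was found on either strand in 2.48% of the 12447 windows and in 10 of 30 windows of the interferon list (33.3%). Among windows of members called higher it was in 7 of 18. The promoters of Ifit1 (chr19:34640639-34640888, plus strand), Isg15 (chr4:156200819-156201068, minus strand) and Ifit3 (chr19:34583279-34583528, plus strand) are printed with the matches in capitals. They hold the motif whether or not the gene was called.
Ifit1: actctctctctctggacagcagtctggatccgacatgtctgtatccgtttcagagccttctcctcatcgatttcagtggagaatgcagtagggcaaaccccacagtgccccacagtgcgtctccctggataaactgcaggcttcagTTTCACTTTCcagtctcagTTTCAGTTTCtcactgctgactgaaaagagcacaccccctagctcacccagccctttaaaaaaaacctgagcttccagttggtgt
Isg15: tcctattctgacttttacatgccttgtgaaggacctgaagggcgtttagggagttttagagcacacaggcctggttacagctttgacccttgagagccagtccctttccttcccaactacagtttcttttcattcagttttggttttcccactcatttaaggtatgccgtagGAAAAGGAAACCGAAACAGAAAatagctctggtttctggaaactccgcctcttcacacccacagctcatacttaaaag
Ifit3: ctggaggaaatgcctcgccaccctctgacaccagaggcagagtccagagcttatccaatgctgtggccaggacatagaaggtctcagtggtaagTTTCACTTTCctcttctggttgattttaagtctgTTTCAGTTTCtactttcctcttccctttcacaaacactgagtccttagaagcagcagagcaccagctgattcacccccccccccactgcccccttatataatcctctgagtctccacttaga
Ifit1 and Ifit3 each hold 2 matches on the opposite strand, where the blocks read TTTC. Isg15 holds 3 matches that overlap in a single run. The Ifit3 window thus held the same motif as the Ifit1 window, while its values stayed within 8 to 17.

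**Figure D3:**
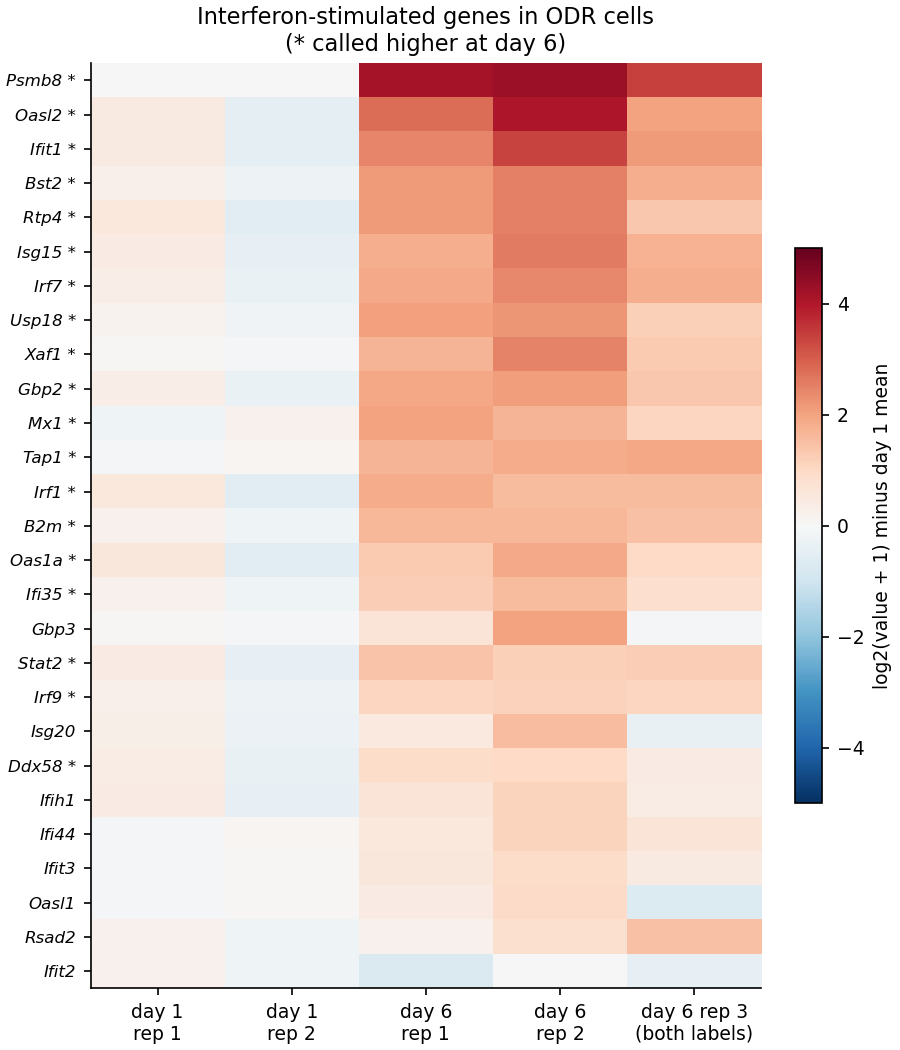
Heat map of 27 of the 28 tested interferon-stimulated genes in the 5 ODR libraries, as log2(value + 1) minus the mean of the 2 day 1 libraries (red higher, blue lower); an asterisk marks genes called higher. Psmb8 has the deepest rise, and Ifit2 at the foot lies at or below its day 1 level.

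Some complement and acute phase genes rose, and 1 fell. Of 18 tested genes of the complement, lipid transport and acute phase list, 7 were called higher (38.9%, against 13.7% of all genes tested), 1 lower and 10 neither (median log2 fold change 0.76). C1s1, which codes for the classical complement protease C1s, went from 18 and 9 to 270, 306 and 212 (4.39 ± 0.36, adjusted p = 2.44e-07). C2 went from 25 and 22 to 216, 229 and 181 (3.19 ± 0.45, adjusted p = 4.65e-05), and C1ra from 112 and 104 to 656, 766 and 611 (2.70 ± 0.41, adjusted p = 0.000106). The acute phase inhibitor Serpina3n went from 156 and 52 to 9297, the ceiling of 18690, and 5072 (7.18 ± 1.17, adjusted p = 0.000195). Saa3, another acute phase gene, fell from 21 and 26 to 3, 6 and 8 (-2.2 ± 0.75, adjusted p = 0.0363), a call that ended when any 1 of the 4 libraries was left out.

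Of 17 tested LIF and STAT3 target genes, a list that shares C1s1 with the one above, 7 were called higher (41.2%, against 13.7% of all genes tested), 2 lower and 8 neither. The median log2 fold change was 0.39, and 0.15 with the doubly labelled library. Socs3, the feedback inhibitor of this pathway, went from 68 and 34 to 386, 388 and 385 (2.98 ± 0.31, adjusted p = 2.21e-06), and the LIF receptor gene Lifr from 94 and 63 to 284, 359 and 276 (2.04 ± 0.29, adjusted p = 5.27e-05). Stat3 itself rose from 1106 and 910 to 1814, 1694 and 1936 (0.80 ± 0.14, adjusted p = 0.000424). Day 6 lay above day 1 for each. The crosslinking enzyme gene Tgm2 and Spp1, or osteopontin, were called lower. The call of Tgm2 ended without day 1 replicate 2 or day 6 replicate 2 (adjusted p of up to 0.115). The call of Spp1 was lost with the doubly labelled library (adjusted p = 0.0547), and leaving out any single library left 0 or 1 of the list called lower.

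No blood cell marker was called higher beside these immune genes. Of 14 tested macrophage and leukocyte markers, 0 were called higher and 2 lower (Csf1r and Cd14, whose calls ended without either of 2 and any of 4 libraries), and the summed level of the list was 800 and 827 at day 1 and 680, 363 and 497 at day 6. The leukocyte antigen gene Ptprc was at 50 and 29 and then at 48, 0 and 39. Endothelial markers summed to 897 and 784 and then 1034, 1068 and 884, with Tie1 and Sox17 listed at 0 in all 5 libraries. Of 8 tested, 1 was called lower (Flt1, 12.5% against 13.9% of all genes tested) and 0 higher. Keratinocyte markers summed to 87 and 69 and then 261, 264 and 284, with Krt5 and Krt14 listed at 0 throughout. Of 4 tested, 2 were called higher (50%, against 13.7%), Itgb4 and Trp63, the latter not without any of 3 libraries. Another, Sfn, was called lower, from 30 and 25 to 5, 4 and 12 (log2 fold change -2.37 ± 0.59, adjusted p = 0.00587). Skeletal and cardiac muscle markers summed to 153 and 273 and then 39, 36 and 48, with the muscle regulators Myod1 and Myf5 listed at 0 throughout. Acta1 gave 106 and 222 of the day 1 sums and was the only 1 of 3 tested that was called lower. Adipocyte markers summed to 437 and 480 and then 221, 233 and 214, and none of the 3 tested was called. Chondrocyte and osteoblast markers summed to 5122 and 5056 and then 2511, 3133 and 3023. Of 10 tested, 5 were called lower (50%, against 13.9% of all genes tested) and 1 higher (10%, against 13.7%). Leaving out single libraries took the macrophage calls to as few as 0, the keratinocyte calls higher to 1 and the chondrocyte and osteoblast calls lower to 3. The part of these lists in the results was not tested.

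The gene for CD73 was not alone among adenosine and nucleotide enzymes. Of 20 tested genes of the adenosine list, 7 were called higher (35%, against 13.7% of all genes tested) and 5 lower (25%, against 13.9%; median log2 fold change 0.02). Most of those called higher code for enzymes at the cell surface or outside the cell. Alpl, the tissue-nonspecific alkaline phosphatase and an early marker of reprogramming, went from 9 and 5 to 280, 404 and 278 (5.44 ± 0.65, adjusted p = 9.07e-06), and the ectonucleotidase genes Enpp3 from 47 and 22 to 696, 600 and 454 (4.28 ± 0.46, adjusted p = 3.44e-06) and Entpd1 from 8 and 7 to 34, 73 and 34 (2.58 ± 0.56, adjusted p = 0.00208). The 5 called lower are a transporter gene and 4 genes of intracellular enzymes. Adk, or adenosine kinase, fell from 682 and 692 to 364, 378 and 407 (-0.89 ± 0.18, adjusted p = 0.00149), and the nucleoside transporter gene Slc29a2 fell from 23 and 35 to 10, 3 and 2 (-2.15 ± 0.51, adjusted p = 0.00417). The Slc29a2 call ended without day 1 replicate 2 (adjusted p = 0.0551) or day 6 replicate 2 (0.0931). Nt5e was among the genes used to describe this change, and its rise is no independent support for the list. The number called lower fell to between 1 and 3 when day 1 replicate 1, day 1 replicate 2 or day 6 replicate 2 was left out.

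Of 30 tested mitosis genes, 12 were called lower (40%, against 13.9% of all genes tested) and 0 higher (median log2 fold change -0.44). Of 36 replication genes 5 were called lower and 0 higher (median -0.24), and the share called lower, 13.9%, was that of all genes tested. Anln, which builds the contractile ring, went from 732 and 706 to 276, 272 and 234 (-1.39 ± 0.20, adjusted p = 6.11e-05), Kif23 from 280 and 268 to 112, 111 and 160 (-1.29 ± 0.16, adjusted p = 1e-05), and Cdk1 from 525 and 575 to 368, 372 and 402 (-0.57 ± 0.10, adjusted p = 0.00052). Rrm2, a subunit of ribonucleotide reductase, fell from 864 and 936 to 440, 367 and 408 (-1.16 ± 0.17, adjusted p = 9.03e-05). The proliferation marker Mki67 was at 976 and 812 and then at 1088, 1366 and 970 (0.45 ± 0.33, adjusted p = 0.333), and Pcna at 607 and 670 and then at 817, 664 and 714 (adjusted p = 0.266). The number of mitosis genes called lower was 7 without day 1 replicate 1 and 6 without either day 1 replicate 2 or day 6 replicate 1, and the number of replication genes was 2 or 3 without any 1 of the 4 libraries.

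Some enzymes of serine and one-carbon metabolism fell, and others did not pass the test or rose. Psat1 went from 1172 and 1472 to 314, 336 and 348 (log2 fold change -2.01 ± 0.22, adjusted p = 3.02e-06), and Phgdh, the entry enzyme of serine synthesis, from 768 and 951 to 330, 334 and 334 (-1.36 ± 0.17, adjusted p = 1.37e-05). Aldh1l2, a mitochondrial folate enzyme, rose from 295 and 237 to 902, 649 and 892 (1.53 ± 0.39, adjusted p = 0.00753), a call that ended without day 1 replicate 2 (adjusted p = 0.0703) or day 6 replicate 1 (0.0749). Their list of 24 tested genes had 7 called lower (29.2%, against 13.9% of all genes tested), 2 higher and 15 neither (median -0.15). The calls lower dropped to 3 without day 1 replicate 2 and 4 without day 6 replicate 1. In the glycolysis and hypoxia list, 8 of 29 tested genes were called lower (27.6%, against 13.9%) and 6 higher (20.7%, against 13.7%; median -0.15), and without single libraries the number called lower was between 3 and 5 and the number called higher went down to 1. Pkm, or pyruvate kinase, went from 7096 in both day 1 libraries to 3999, 3999 and 4220 (-0.83 ± 0.15, adjusted p = 0.000412), whereas Pfkm, a phosphofructokinase, rose from 204 and 202 to 331, 308 and 383 (0.65 ± 0.15, adjusted p = 0.00304).

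Of 23 tested secreted genes that accompany senescence, 6 were called lower (26.1%, against 13.9% of all genes tested) and 1 higher. Igfbp7, an insulin-like growth factor binding protein, went from 996 and 1184 to 73, 80 and 110 (log2 fold change -3.81 ± 0.49, adjusted p = 1.93e-05), and the chemokine gene Cxcl1 from 142 and 165 to 14, 11 and 36 (-3.52 ± 0.42, adjusted p = 9.88e-06). Igfbp5 rose from 443 and 298 to 2799, 5072 and 2884 (3.37 ± 0.32, adjusted p = 8.25e-07). The 2 binding proteins thus moved in opposite directions, each with separate groups. The cell cycle inhibitor gene Cdkn2b fell from 558 and 503 to 150, 122 and 182 (-1.96 ± 0.23, adjusted p = 9.58e-06), in a list of 24 p53 and Ink4 genes with 6 called lower (25%) and 1 higher.

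Most pluripotency genes were at or near 0 on both days. Of 30 in the list 7 were tested, and 8 were listed at 0 in all 5 libraries. Nanog was at 0 and 4 and then at 1, 0 and 0, and Sox2 at 5 and 2 and then at 1, 2 and 2. Beside Pou5f1 at the ceiling, Tfcp2l1, a factor of the naive state, rose from 4 and 14 to 63, 57 and 49 (log2 fold change 2.81 ± 0.47, adjusted p = 0.000225), against 6244 in the mESC library. Klf4 fell from 212 and 257 to 61, 80 and 83 (-1.73 ± 0.38, adjusted p = 0.00268), and Klf5 from 580 and 444 to 247, 342 and 213 (-0.80 ± 0.25, adjusted p = 0.0209), a call lost without day 1 replicate 1 (adjusted p = 0.168) or day 6 replicate 1 (0.200). No epithelial gene was called higher: of 11 tested of 30 listed, 0 were called higher and 6 lower (54.5%, against 13.9% of all genes tested), among them Krt19, described above, and Spint1, a protease inhibitor of epithelia, from 19 and 22 to 6, 0 and 8 (-3.02 ± 0.75, adjusted p = 0.00573), a call that ended without day 6 replicate 2 (-1.62, adjusted p = 0.145). The number of epithelial genes called lower was 2 or 3 without day 1 replicate 1, day 1 replicate 2 or day 6 replicate 2.

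Genes that separate the single mESC and MEF libraries by a log2 difference of at least 3 were used as a wider gauge. Only tested genes enter these sets, so a gene low at day 1 could enter through its day 6 values alone, and the reverse. The shares called are thus partly set by the filter and are a description only. Of 400 tested genes higher in mESC, 89 were called higher (22.25%, against 13.7% of all genes tested) and 37 lower (9.25%, against 13.9%) in ODR cells at day 6, with a median log2 fold change of 0.19. Of 1254 higher in MEF, 216 were called higher (17.2%) and 273 lower (21.8%), with a median of -0.17. The MEF-high genes thus moved in both directions. Among signalling genes, Id and BMP target genes had 7 of 23 tested called lower (30.4%, against 13.9% of all genes tested) and 3 higher (13%, against 13.7%). These became 0 or 1 higher without any single library, and 4 lower without either day 1 replicate or without day 6 replicate 1. Runx2, the osteoblast factor of that list, fell from 541 and 426 to 94, 144 and 118 (-2.04 ± 0.24, adjusted p = 8.14e-06). Among Polycomb genes 3 of 35 were called higher (8.57%) and 2 lower (5.71%), both shares below those of all genes tested (13.7% and 13.9%). Bmi1, a subunit of canonical PRC1, rose from 279 and 229 to 504, 456 and 508 (0.92 ± 0.16, adjusted p = 0.000273). The neural factor gene Sox1 rose from 3 and 1 to 108, 160 and 116 (5.55 ± 0.76, adjusted p = 3.71e-05), in a list where 2 of 16 tested genes were called higher and 2 lower (12.5% each, close to the shares of all genes tested). The Polycomb and neural calls lower were 0 or 1 without either day 1 replicate or without day 6 replicate 1.

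The later course was read from the 3 ODR libraries at day 14, as values without a test. Tagln was at 41, 42 and 84 there, below its day 6 values, and Acta2 at 280, 260 and 298. Nt5e was at 9302 in one library and at the ceiling in the others. C1s1 reached 935, 990 and 792, and Psmb8 156, 199 and 191. Mylk, which had risen against the contractile list, was at 431, 474 and 518, near the 402 of the MEF library. For all these genes except Acta2 the day 14 values lay further from day 1 than the day 6 values did. Other members of the same lists did not all go on in this way. Irf7 was at 42, 84 and 105 at day 14, Irf9 at 270, 303 and 298, and Stat2 at 400, 334 and 496. These 3 genes lay below their day 6 values, whereas Tap1, at 210, 222 and 215, lay above its own. Srf was at 287, 282 and 298, near its day 1 values of 294 and 282.

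**Figure D4:**
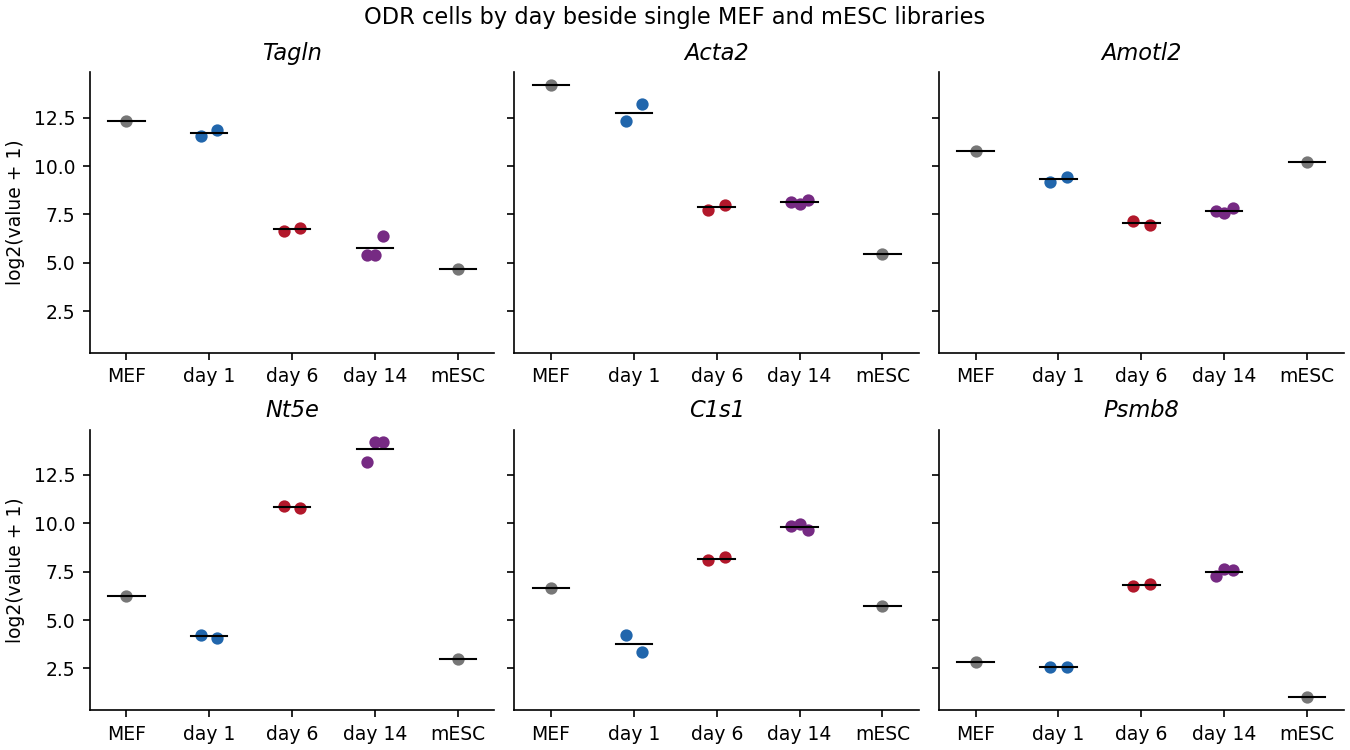
Log2(value + 1) of 6 genes in ODR libraries by day (points are libraries, bars their mean, without the doubly labelled library), beside the single MEF and mESC libraries. Tagln, Acta2 and Amotl2 fall between day 1 and day 6, and Nt5e, C1s1 and Psmb8 rise, with Nt5e at the ceiling in 2 of the 3 day 14 libraries.

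The change in ODR cells was then set against that in OA and OB cells by testing the difference between the changes, in groups that share no library. Against OA, 7 genes of 12473 differed (0.0561%), with 680 at an unadjusted p below 0.05. Against OB, 50 differed (0.401%), with 1194 at an unadjusted p below 0.05. With the doubly labelled library these numbers were 4 (0.0321%) and 119 (0.954%). Tagln and Nt5e were not among them: the Tagln change in ODR minus that in OB was -1.08 ± 0.80 on the log2 scale (adjusted p = 0.784) and the Nt5e change minus that in OB -0.31 ± 0.51 (adjusted p = 0.941). No member of the contractile or interferon list differed at this threshold. The interferon list had a median change of 1.62 in ODR cells, 0.57 in OA cells and 0.94 in OB cells. Some members stood higher in OA than in ODR at day 1: Irf7 at 170 and 85 against 66 and 42, and Isg15 at 98 and 46 against 45 and 25. Others did not: Tap1 was at 40 and 25 in OA against 44 and 50 in ODR. How far day 1 levels account for the medians was not tested. A p that misses the threshold does not show that the changes were alike.

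Genes whose rise was larger in ODR than in OB cells included Vgf, a neurosecretory peptide precursor. In ODR cells it went from 263 and 108 to 1894, 2178 and 2065, whereas in OB cells it was at 1894 and 1046 at day 1 and between 1026 and 1256 at day 6. The ODR change exceeded the OB change by 3.88 ± 0.70 (log2, adjusted p = 0.0141). Sptb, or beta spectrin, went from 20 and 16 to 257, 268 and 248 in ODR and from 127 and 60 to between 64 and 116 in OB (3.69 ± 0.67, adjusted p = 0.0141). Slitrk4, a neuronal adhesion gene, went from 21 and 25 to 119, 124 and 149 in ODR and from 106 and 86 to between 88 and 115 in OB (2.27 ± 0.27, adjusted p = 0.000318). In all 3 genes the OB libraries were already high at day 1. Leaving out single ODR libraries raised the adjusted p of Vgf to at most 0.115 and that of Sptb to at most 0.0831.

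The fall of other genes in ODR cells differed from their change in OB cells. Igf2, the fetal growth factor, went from 3492 and 3172 to 1028, 1096 and 1062 in ODR, whereas in OB it was at 4218 and 3993 and then between 4621 and 5077 (difference of changes -1.89 ± 0.33, adjusted p = 0.0115). Sema3e, a guidance cue, went from 1150 and 1039 to 259, 264 and 264 in ODR and from 607 and 671 to between 424 and 520 in OB (-1.60 ± 0.28, adjusted p = 0.0107). Adam23, a surface protein of the disintegrin family, went from 186 and 197 to 64, 71 and 71 in ODR and from 274 and 271 to between 332 and 419 in OB (-1.95 ± 0.35, adjusted p = 0.0141). Leaving out single ODR libraries raised the adjusted p of Igf2 and of Sema3e to at most 0.056 and that of Adam23 to at most 0.0825. Against OA, Anxa2, a membrane-binding annexin, was at 9306 in both day 1 libraries of both combinations. It went to 5620, 5620 and 5083 in ODR and to the ceiling of 18690 in all 3 OA libraries (difference of changes -1.73 ± 0.27, adjusted p = 0.0115). The call ended without day 6 replicate 2. The OA values at day 6 are capped, so the size of the difference is not a full measure. In the fit each of these groups held 1 repeated value, so the error does not come from their own spread.

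**Figure D5:**
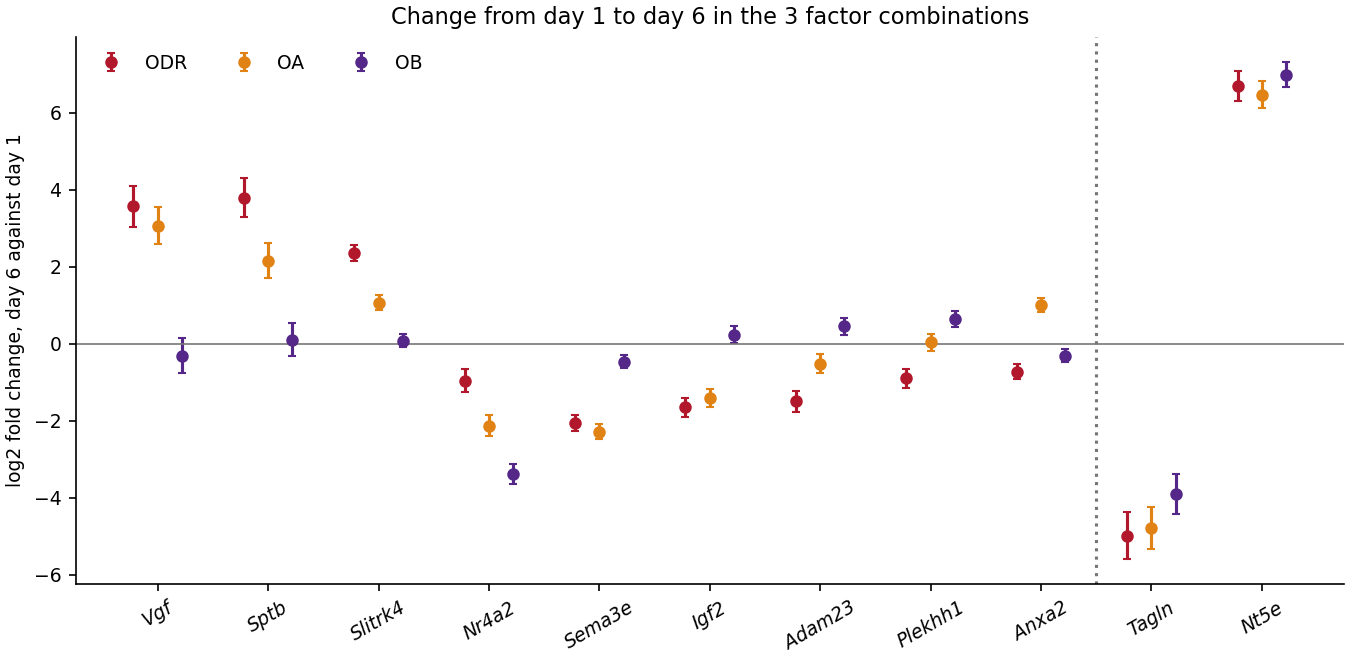
Log2 fold change from day 1 to day 6 (points, with SE as bars) in ODR, OA and OB cells for 9 genes whose change differed between combinations and, to the right of the dotted line, Tagln and Nt5e. The OB points of Vgf, Sptb and Slitrk4 lie near 0 while the ODR points lie at 3.58, 3.80 and 2.36.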

How the data were processed

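Poly-A RNA was sequenced and, per the submitters' processing notes, the tools were bcl2fastq, RSEM and Bowtie2 2.2.5, with genome build mm10. The authors deposited a normalized tag count score per gene in whole numbers, and the sources used here do not give how they normalized it. Columns share nearly the same distribution (totals of 4368162 to 4398785 in the 5 ODR libraries), so the values are not read counts, the depth is unknown, and the number of libraries limits the precision.

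Values were taken as log2(value + 1). Genes that reached 10 in 2 or more of the 5 ODR libraries were tested with limma 3.58.1 in R 4.3.3, in 1 fit of 11 groups and 27 libraries with 16 residual degrees of freedom, without the doubly labelled library. The fit pools the spread over groups, so the spread of a group of 1 library is taken from the other groups. All tests were two-sided, with Benjamini-Hochberg adjustment over all genes tested. The scripts were tested on simulated data.

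The members and the 31 gene lists were chosen with earlier results of these data known. Lists are described by counts and medians, without a test. The text names Tagln, Nt5e, Pou5f1, Kdm2b and Kdm2a, the 10 largest called changes in each direction without overlap, off the ceiling and with a higher group mean of at least 100 (no predicted genes), up to 3 called members of a list in each direction by adjusted p, and the 4 largest called differences from OA and OB in each direction among genes called over time with an ODR mean of at least 100. Other genes it names, and the 4 promoter motifs searched (the CArG box, the interferon-stimulated response element core, GGAATG and, for AP-1, TGANTCA), were chosen after their values were seen. TGANTCA was in 4.61% of all windows and in 0 of 23 of the immediate early list. It was in 5 of 30 windows of the interferon list (16.7%), 2 of 18 of the contractile list (11.1%) and 0 of 22 of the TGF-beta and YAP list. Gene coordinates are from GENCODE on mm10. Alternatives covered the doubly labelled library, the libraries in the fit, the pseudocount, the filter, scaling, limma's options, a replicate block and each ODR library left out in turn. Some genes that the naming rule gives are not reported here.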

Additional observations from a re-analysis of the deposited data

Results flagged for a closer look

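These genes changed over time in ODR cells by an amount that differed from the change in OA or OB cells when the difference itself was tested, and each value is the ODR change minus the other change on the log2 scale. Against OB cells the difference was 3.88 for Vgf, 3.69 for Sptb, 2.27 for Slitrk4, 2.42 for Nr4a2, -1.95 for Adam23, -1.89 for Igf2, -1.60 for Sema3e and -1.54 for Plekhh1. Nr4a2, an immediate early nuclear receptor, fell in both, from 154 and 172 to 67, 104 and 48 in ODR and from 313 and 382 to between 29 and 39 in OB. Its call over time in ODR ended without day 1 replicate 1 (adjusted p = 0.065), day 1 replicate 2 (0.131) or day 6 replicate 1 (0.233), and its difference from OB without day 6 replicate 2 (0.0659). Plekhh1 was at 140 and 114 and then at 83, 55 and 84 in ODR, and at 148 and 206 and then between 260 and 306 in OB. Its difference ended without 3 of the 4 libraries in turn, with an adjusted p of up to 0.223, and its call over time without day 1 replicate 1 (0.0952) or day 6 replicate 2 (0.159).

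Prl8a6 was listed at 0 in every ODR and OB library at day 6, so its difference of -1.004 rests on the day 1 values (112 and 122 in ODR, 53 and 63 in OB) and on the 1 added before the log.

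Against OA cells 3 genes rose more in ODR and 4 had a lower change in ODR. Igtp, an interferon-inducible GTPase, went from 13 and 7 to 88, 100 and 47 in ODR and from 25 and 28 to 55, 44 and 55 in OA (2.24, and 2.14 against OB). Tmem71 was listed at 0 in both ODR day 1 libraries and was at 51, 34 and 10 at day 6, against 69 and 39 and then 105, 59 and 57 in OA (4.98, and 4.31 against OB). Fut9, a fucosyltransferase, was listed at 0 in both ODR day 1 libraries and at 28, 40 and 18 at day 6, against 15 and 21 and then 12, 0 and 1 in OA (7.77). The differences of Tmem71 and Fut9 rest on the 1 added before the log. The lower changes were -1.73 for Anxa2, -2.93 for Cyp7a1 (18 and 15 and then 1, 2 and 2 in ODR), -1.18 for Usp53 and -4.99 for Gria4. Against OB, Cyp7a1 differed by -2.69 and Usp53 by -1.39. Gria4 was at 10 and 41 and then at 16, 44 and 0 in ODR, and was listed at 0 in both OA day 1 libraries. Most of these calls were lost when 1 ODR library was left out: without day 6 replicate 2 the adjusted p was 0.281 for Igtp and for Usp53 against OA, and 0.0644 for Fut9 and Anxa2.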

How the results depend on the processing

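Leaving out 1 ODR library at a time gave 1011 to 1245 genes called higher and 894 to 1141 called lower, with the lowest numbers without day 1 replicate 2. The replicate block gave 1659 and 1674, with 6 genes differing from OA and 52 from OB. Deviations of same-numbered libraries correlated at -0.09 across genes, and the labels name no shared batch. With 2 libraries a day in the fit, this correlation cannot show whether same-numbered libraries were paired. A fit of the ODR libraries alone gave 1272 higher and 1160 lower calls. The pooled fit without the library labelled OA day 14 replicate 2 gave 2031 higher and 2104 lower calls, against 1711 and 1733 with it. The number differing from OA was 4 with the doubly labelled library, 22 without a filter, 12 with a filter over all libraries, 4 with limma's trend and robust options and 4 to 10 without single libraries. The number differing from OB was 119 with the doubly labelled library, 110 with a pseudocount of 10, 253 without the library labelled OA day 14 replicate 2 and 21 to 46 without single ODR libraries. The cause was not tested. Gria4, which was not called over time (0.36), had a log2 fold change of -1.23 with the doubly labelled library (-1.23 in the fit of ODR libraries alone), -0.60 without day 1 replicate 1, 1.33 without day 1 replicate 2 and -0.34 without day 6 replicate 2. Of 136 called genes that the naming rule gives, 100 kept their call without each of the 4 libraries, and 3 lost it with the doubly labelled library (Nupr1, Spp1 and Tcf7). The contractile and interferon lists stayed within 1.5 times their main counts of lower and higher calls under every alternative run. Depth is unknown, so nothing is said of counting error.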

Other observations

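Most tested genes of antigen presentation by MHC class I, beyond those of the interferon list, were called higher. They were chosen after their values were seen and carry no test as a group. Of 9 tested class I genes named H2-K, H2-D, H2-Q or H2-T with a number, 7 were called higher and 0 lower, against 13.7% of all genes tested called higher. H2-K1 was at 260 and 256 at day 1 and at 1148, 1148 and 842 at day 6 (log2 fold change 2.15 ± 0.16, adjusted p = 4.15e-08), and H2-D1 was at 382 and 391 and then at 1070, 1086 and 952 (1.48 ± 0.19, adjusted p = 2.22e-05). Class I genes are near-identical copies, so how their shared reads were divided is uncertain. Another set of 14 tested genes covered the supply and loading of class I peptides and the regulator Nlrc5. In it 3 genes are also in the interferon list (Psmb8, Tap1 and B2m). Of the 14, 11 were called higher and 0 lower (10 and 0 with the doubly labelled library), against 13.7% of all genes tested called higher. Tapbp, or tapasin, went from 471 and 334 to 1747, 1935 and 1690 (2.21 ± 0.26, adjusted p = 7.6e-06), and Nlrc5, the transactivator of class I genes, from 11 and 4 to 73, 92 and 47 (3.42 ± 0.45, adjusted p = 2.82e-05).

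Some placental prolactin family genes fell from day 1 to day 6. Of 15 tested, 7 were called lower, 0 higher and 8 neither, against 13.9% of all genes tested called lower, and 7 and 1 with the doubly labelled library. Prl3d1, or placental lactogen, was at 70 and 64 at day 1 and listed at 0 in all 3 day 6 libraries, and Prl3a1 went from 82 and 90 to 4, 8 and 4 (-3.70 ± 0.43, adjusted p = 7.08e-06). In the MEF library Prl3a1 was at 67 and Prl3d2 at 10, and Prl8a6, Prl3d1 and Prl3d3 were listed at 0. Prl2c2 was at 87 and 92 and then at 146, 122 and 138 (adjusted p = 0.0513, and 0.0212 with the doubly labelled library), and Prl8a1 at 88 and 86 and then at 91, 70 and 108 (adjusted p = 0.794). Prl3d2 was at 546 and 944 and then at 32, 34 and 74 and was not called (adjusted p = 0.0645). These genes are close copies, and reads may have been divided among them. In the Serpina3 family 4 of 5 tested genes were called higher, against 13.7% of all genes tested. Among them Serpina3i went from 4 and 10 to 57, 67 and 62 (3.08 ± 0.88, adjusted p = 0.0141), a call that ended when any of 3 libraries was left out.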
